A study of Mus musculus with 8 samples.

Results

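IGHV5 is the mouse heavy-chain V family also called VH7183, a group of V segments that lies next to the D segments of the immunoglobulin heavy-chain locus. Its members were taken as every gene whose name starts with IGHV5-, and 17 of the 159 VH genes with reads in these data met that rule. Of the 3882 complete heavy-chain CDR3 sequences assembled from the same reads, 202 listed V genes of IGHV5 alone. A complete sequence runs from the conserved cysteine to the conserved tryptophan, and each distinct one in a sample is called a clonotype here.

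The samples were poly-A RNA of pro-B cells of mice aged 8 weeks, with 4 Setd2 knockout and 4 control samples. The cells had been sorted from bone marrow for B220 and Cd43, with IgM-positive and CD25-positive cells left out. The labels name no Setd2 allele, no Cre driver and no animal behind a replicate number, so p-values here measure only how far these samples spread, which may be technical. Setd2 encodes the methyltransferase that places the trimethyl mark on lysine 36 of histone H3, and whether its RNA was lost was not analysed here.

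In a pro-B cell the recombinase joins a D segment to a JH segment and then a VH segment to the joined DJ. Proximal families such as IGHV5 are known to be joined often in early B-lineage cells, while joining of the distal families needs the locus to contract. The CDR3 is the stretch across the V, D and J junctions, so cells that descend from a single rearranged cell share it. IGHV5-2, known as VH81X, is the nearest functional member and is the classic example of a segment joined often that rarely survives the pre-B receptor checkpoint.

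The members lay on chromosome 12, minus strand, from IGHV5-1 at 113572929 to 113573222 to IGHV5-21 at 114320030 to 114320324 (mm10, positions as the files give them). By the GENCODE M21 annotation of that build, 10 were functional V genes and 7 were pseudogenes. The functional genes spanned 149 kb to 429 kb from IGHJ1, from IGHV5-2 at 113578504 to 113578990 to IGHV5-17 at 113859149 to 113859442. IGHV5-6 lay at 113625508 to 113625801, IGHV5-9-1 at 113736113 to 113736406 and IGHV5-16 at 113838528 to 113838821.

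The 3′ ends of the V segments are shown because they carry the first bases of the CDR3, where germline IGHV5-9-1 differs from the other functional members. In control 3, assembled sequences that differed at only 1 base began TGTGCAAGA and TGTGCAAGG, so a start alone does not name the gene. Each is the coding strand of the GENCODE M21 transcript, with the first 9 bases of the CDR3 in capitals.
IGHV5-2: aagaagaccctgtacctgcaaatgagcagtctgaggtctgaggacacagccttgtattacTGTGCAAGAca
IGHV5-6: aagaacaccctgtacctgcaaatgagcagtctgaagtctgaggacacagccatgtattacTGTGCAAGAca
IGHV5-9-1: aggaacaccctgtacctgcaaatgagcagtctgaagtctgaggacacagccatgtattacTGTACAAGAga
IGHV5-16: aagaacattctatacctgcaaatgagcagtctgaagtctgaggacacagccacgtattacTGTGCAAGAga
IGHV5-17: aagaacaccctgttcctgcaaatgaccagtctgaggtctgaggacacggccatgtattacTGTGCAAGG
Of the 10 functional members, IGHV5-9-1 was the 1 whose CDR3 began TGTACAAGA, IGHV5-17 was the 1 with TGTGCAAGG, and the other 8 began TGTGCAAGA. Outside the family, 3 IGHV1 genes also began TGTACAAGA among the 82 VH genes searched. The members are close copies, with 95.7% identity over 280 bases between IGHV5-4 and IGHV5-6. The 75-base windows of each member were compared with all other annotated VH genes, whatever their family. For IGHV5-6, 58.8% of windows lay within 2 mismatches of another VH gene. The value was 37.0% for IGHV5-9-1, 20.2% for IGHV5-17 and 0% for IGHV5-16 and for IGHV5-2. How the counting divided reads between close copies is not stated in the labels or file headers, so values of single members are uncertain to that extent.

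IGHV5 segments took a similar share of VH reads in most samples, and knockout 4 stood apart. The values below are reads on a member as a percent of all VH reads of the sample, from the authors' segment counts. VH reads numbered 25533, 22369, 1637 and 56542 in Setd2 knockouts 1 to 4, and 39035, 53071, 35505 and 45241 in controls 1 to 4. IGHV5 held 6.76%, 3.47%, 7.88% and 31.6% of them in knockouts 1 to 4, against 8.97%, 7.73%, 6.92% and 6.93% in controls 1 to 4. Knockout 2 was the lowest of the 8 samples and knockout 4 the highest, and the groups overlapped. The means were 12.4% ± 12.9 in knockouts and 7.64% ± 0.967 in controls (SD, n = 4 each), and the knockout mean without knockout 4 was 6.04%. In a fit over all 15 VH families, edgeR's quasi-likelihood test gave IGHV5 a log2 fold change of 0.70 with SE 0.59 (knockout over control, Benjamini-Hochberg adjusted p = 0.554). Without knockout 4 the fold change was -0.34 (adjusted p = 0.806). In that fit 13.3% of families were called lower and 0% higher.

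**Figure D1:**
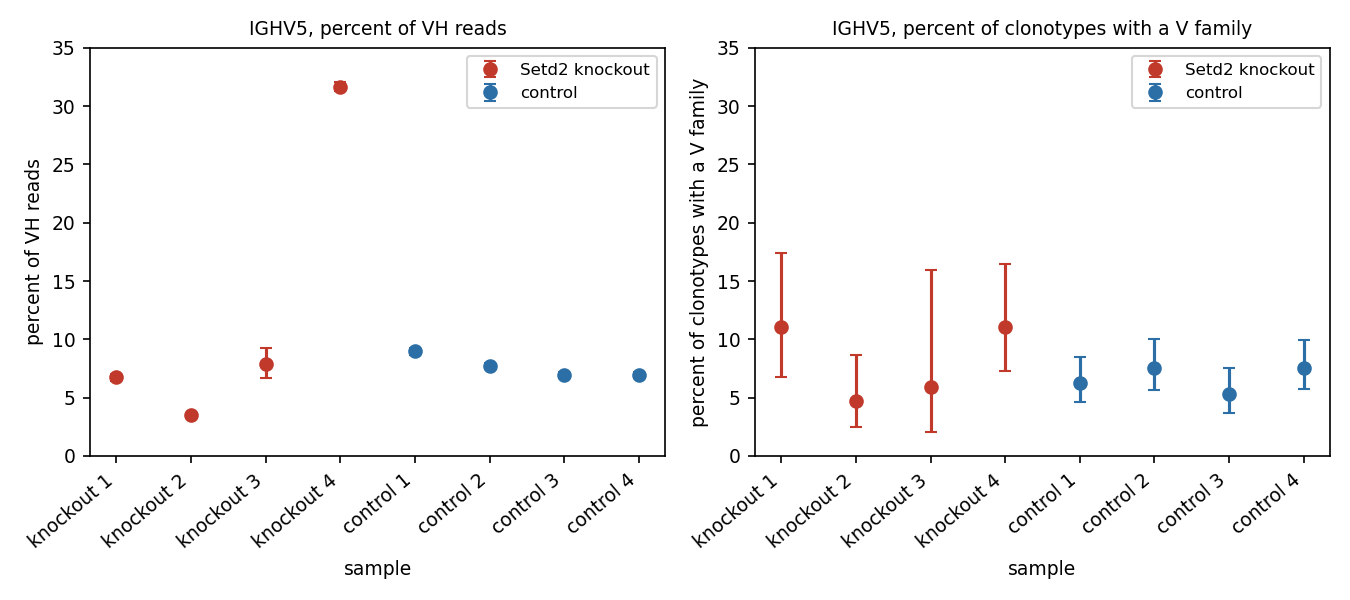
IGHV5 as percent of VH reads (left) and as percent of clonotypes with a V family (right), with knockouts at the left of each panel and 95% Wilson intervals as bars. Knockout 4 reached 31.6% of VH reads, while its share of clonotypes, 11.05%, lay close to that of knockout 1.

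A single member made up the excess in knockout 4. IGHV5-9-1 held 0.106%, 0.0760%, 0.489% and 27.6% of VH reads in knockouts 1 to 4, from 27, 17, 8 and 15630 reads. In controls 1 to 4 it held 0.735%, 1.32%, 0.451% and 0.438%. Knockouts 1 and 2 lay below all controls, knockout 3 lay within them and knockout 4 far above. With IGHV5-9-1 left out, the other members together held 6.66%, 3.40%, 7.43% and 5.52% of VH reads in knockouts 1 to 4, against 8.30%, 6.49%, 6.50% and 6.52% in controls 1 to 4. Its fitted log2 fold change was 3.27 with SE 1.45 (edgeR, adjusted p = 0.158) and turned to -1.99 without knockout 4 (adjusted p = 0.179).

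The leading member differed among the knockouts. It was IGHV5-6 in knockout 1 with 76.3% of IGHV5 reads, IGHV5-9 in knockout 2 with 32.9%, IGHV5-4 in knockout 3 with 27.9% and IGHV5-9-1 in knockout 4 with 87.4%. In controls 1, 2 and 4 it was IGHV5-6 with 42.9%, 21.6% and 31.9%, and in control 3 it was IGHV5-9 with 28.1%. IGHV5-17 came next in every control, with 17.1% to 24.9% of IGHV5 reads, and held 1.48% to 19.4% in the knockouts. The evenness of the family was summarised by the effective number of members, the exponential of the Shannon entropy of their read shares. It was 2.65, 6.45, 4.87 and 1.73 in knockouts 1 to 4, against 5.40, 6.62, 6.42 and 6.13 in controls 1 to 4. Knockouts 1, 3 and 4 lay below every control, and knockout 2 lay within them. Knockout 3 had 129 IGHV5 reads. When the other samples were scaled to that number, the expected number of members seen was 7.82, 9.04, 7 and 5.42 in knockouts 1 to 4, against 8.33, 8.34, 8.43 and 8.95 in controls 1 to 4.

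**Figure D2:**
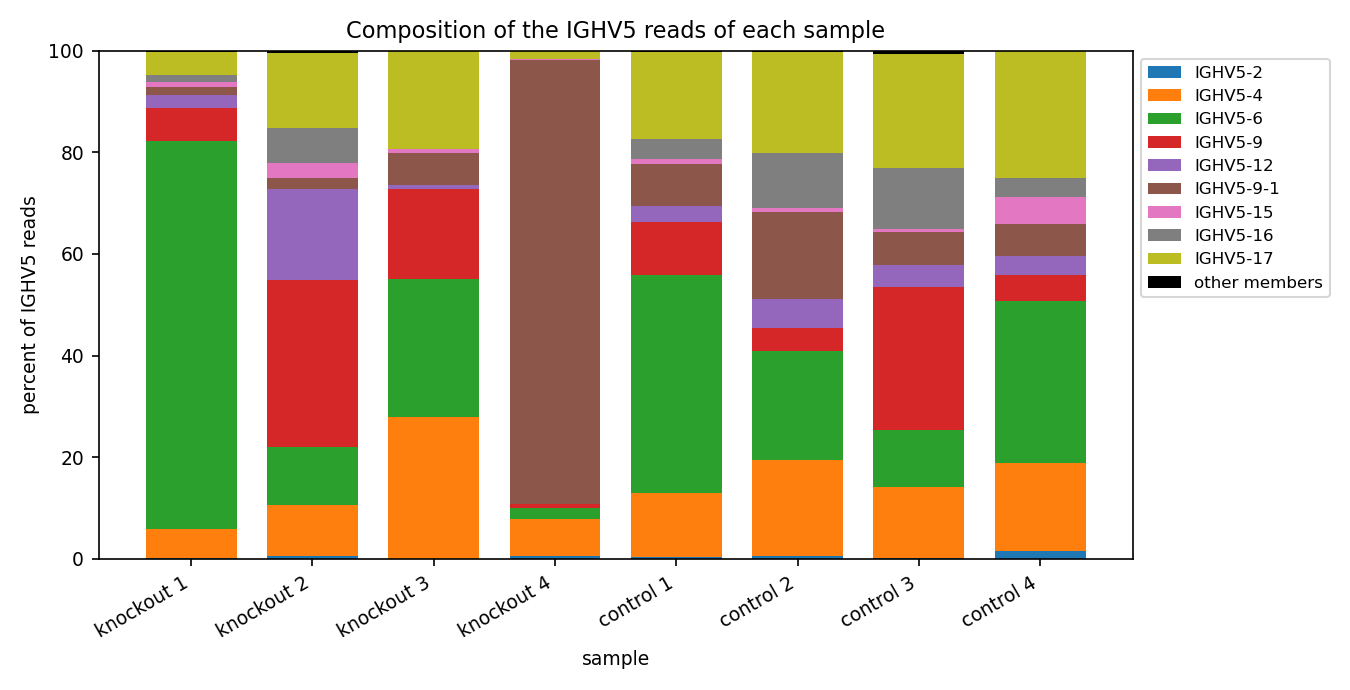
Stacked bars give each member's percent of the IGHV5 reads of a sample, with knockouts at the left. IGHV5-6 filled 76.3% of the bar of knockout 1 and IGHV5-9-1 filled 87.4% of that of knockout 4, while no member passed 42.9% in a control.

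Per 100 bases of segment, the order of mean levels in the controls was IGHV5-6, IGHV5-17, IGHV5-4, IGHV5-9-1, IGHV5-16, IGHV5-9, IGHV5-12, IGHV5-15, IGHV5-2 and IGHV5-1. In the knockouts it was IGHV5-9-1, IGHV5-6, IGHV5-4, IGHV5-17, IGHV5-9, IGHV5-12, IGHV5-16, IGHV5-15, IGHV5-2 and IGHV5-1. The segment lengths in the files were 458 bases for IGHV5-9 and 487 for IGHV5-2, against 294 for the others ranked, so these places depend on the lengths. By share of VH reads alone, IGHV5-9 averaged 0.894% in controls, above IGHV5-9-1 at 0.737% and IGHV5-16 at 0.577%. In knockouts it averaged 0.813%, above IGHV5-17 at 0.707%. Per 100 bases, IGHV5-9-1 averaged 2.41% ± 4.66 of VH reads in knockouts and 0.251% ± 0.141 in controls. Its first place rests on knockout 4, without which its knockout mean was 0.0760%, below the 0.0964% of IGHV5-12. IGHV5-17 averaged 0.240% ± 0.188 in knockouts and 0.540% ± 0.0317 in controls, and IGHV5-6 averaged 0.712% ± 0.741 in knockouts and 0.724% ± 0.439 in controls. Among neighbours in the control order, means differed by more than the sum of their SDs for IGHV5-17 against IGHV5-4 and for no other pair. In the knockout order, no neighbours did.

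IGHV5-17 and IGHV5-16, the functional members farthest from the D segments, had a lower share in every knockout than in any control. IGHV5-17 held 0.317%, 0.514%, 1.53% and 0.469% of VH reads in knockouts 1 to 4, against 1.53%, 1.53%, 1.55% and 1.73% in controls 1 to 4. The controls lay close together, while knockouts 1, 2 and 4 were well below them. Knockout 3, with 25 reads of IGHV5-17 (95% Wilson interval 1.04% to 2.24%), lay below the lowest control by less than its counting error. IGHV5-16 held 0.0901%, 0.241%, 0% and 0.0389% of VH reads in knockouts 1 to 4, against 0.364%, 0.842%, 0.831% and 0.270% in controls 1 to 4. Knockout 3 had 0 of 1637 VH reads on it, which allows a share of up to 0.183%, and this limit lies below the lowest control. Intervals and limits of this kind cover counting error only. Of the 130 VH genes with at least 10 reads, 24.6% lay below every control in all knockouts and 0% lay above, so 2 of the 10 members tested are near the background.

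Neither gene passed the test over all VH genes. IGHV5-16 had a log2 fold change of -2.48 with SE 0.89 (edgeR, adjusted p = 0.101), which ran from -3.41 to -2.15 when each sample was left out in turn. IGHV5-17 had a log2 fold change of -1.22 with SE 0.72 (edgeR, adjusted p = 0.280), which was -1.87 without knockout 3 (adjusted p = 0.0989). The size depended on the scaling. The median of all VH genes was -0.82 on the log2 scale by share and 0.18 with TMM scaling, and with TMM IGHV5-17 stood at -0.29 and IGHV5-16 at -1.45.

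**Figure D3:**
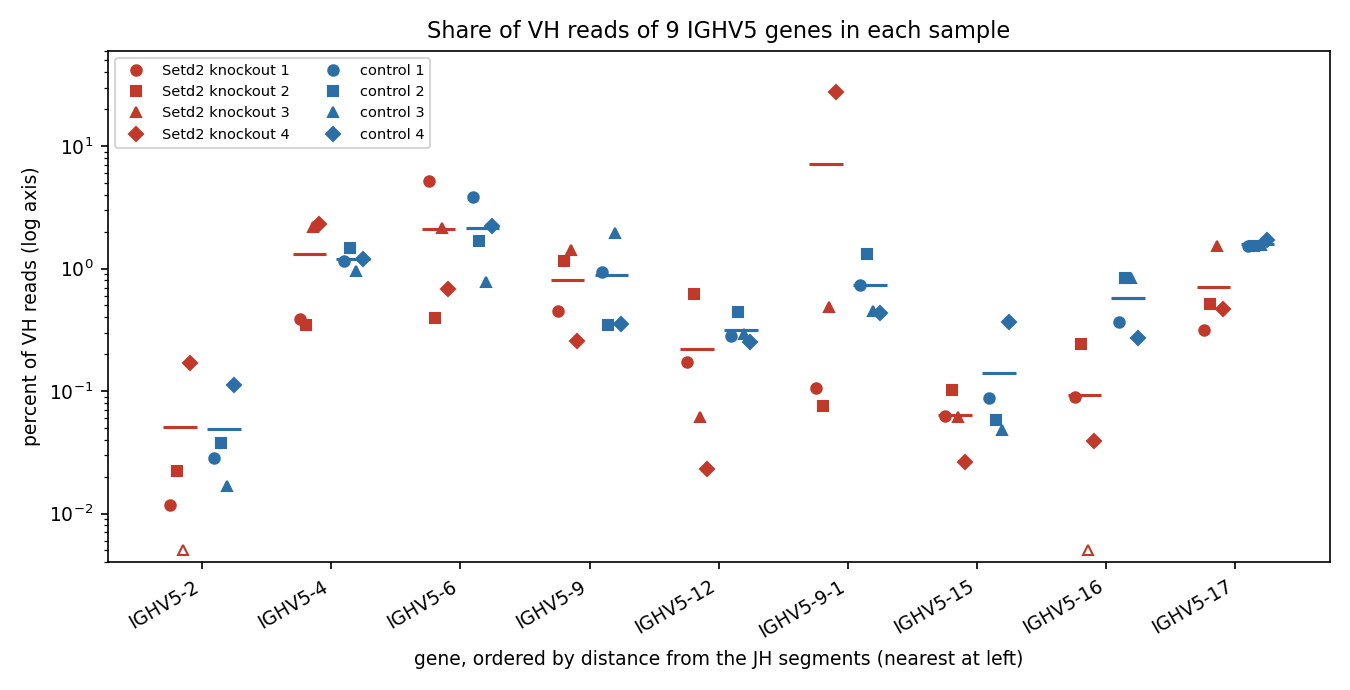
Each point is the percent of VH reads of a gene in a sample on a log axis, knockouts left of controls, with horizontal lines at group means and open symbols drawn at 0.005 for samples with 0 reads. IGHV5-16 and IGHV5-17 show every knockout below the controls, and IGHV5-9-1 shows knockout 4 at 27.6%.

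IGHV5-6, the most used member in the controls, held 5.15%, 0.398%, 2.14% and 0.684% of VH reads in knockouts 1 to 4, against 3.85%, 1.67%, 0.780% and 2.21% in controls 1 to 4. Knockout 1 was the highest of the 8 samples and knockout 2 the lowest. IGHV5-4 held 0.384%, 0.344%, 2.20% and 2.30% in knockouts 1 to 4, against 1.14%, 1.46%, 0.963% and 1.20% in controls 1 to 4. Its knockouts fell on both sides of the controls, with knockouts 1 and 2 below all of them and knockouts 3 and 4 above. IGHV5-9 held 0.446%, 1.14%, 1.41% and 0.256% in knockouts 1 to 4, against 0.932%, 0.347%, 1.94% and 0.354% in controls 1 to 4, and the groups overlapped widely. IGHV5-12 held 0.172%, 0.617%, 0.0611% and 0.0230% in knockouts 1 to 4, against 0.282%, 0.443%, 0.293% and 0.252% in controls 1 to 4. Knockout 2 was above every control and the other 3 knockouts were below. IGHV5-15 held 0.0265% to 0.103% in knockouts and 0.0479% to 0.365% in controls.

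IGHV5-2, the segment known as VH81X, was barely read in either group. It had 3, 5, 0 and 95 reads in knockouts 1 to 4, or 0.0117%, 0.0224%, 0% and 0.168% of VH reads. In controls 1 to 4 it had 11, 20, 6 and 51 reads, or 0.0282%, 0.0377%, 0.0169% and 0.113%. Knockout 4 and control 4 were the high samples of their groups, and the 0 of 1637 reads of knockout 3 allows up to 0.183%, which is above every other sample. The fold change had no stable direction (log2 0.29 with SE 0.97, edgeR, adjusted p = 0.891), and it was -1.64 without knockout 4.

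Of the 7 pseudogenes, IGHV5-1 had 18 reads in knockouts and 26 in controls. The other 6 pseudogenes and the functional IGHV5-12-4 had at most 2 reads in any sample and 14 reads in all, and these 7 genes were not tested.

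By edgeR, 0 of the 10 tested members passed an adjusted p under 0.05, against a background of 0% of the 130 VH genes. At an unadjusted p under 0.05, IGHV5-9-1 was higher (1.54% of all VH genes were higher by that rule) and IGHV5-16 was lower (26.2% were lower). DESeq2 called 0 members at an adjusted p under 0.05, against 4.62% of VH genes, and gave no p for IGHV5-9-1 and IGHV5-2. At an unadjusted p under 0.05 it had 0 members higher, against 13.1% of VH genes, and IGHV5-16 lower, against 10% of VH genes. The median log2 fold change was -0.27 over the 10 members and -0.82 over all 130 genes by share of VH reads. With TMM the medians were 0.77 over the members and 0.18 over all genes, and with DESeq2 0.82 over the members and 0.20 over all genes. By share 3 members had positive and 7 negative fold changes, and with TMM 7 positive and 3 negative.

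**Figure D4:**
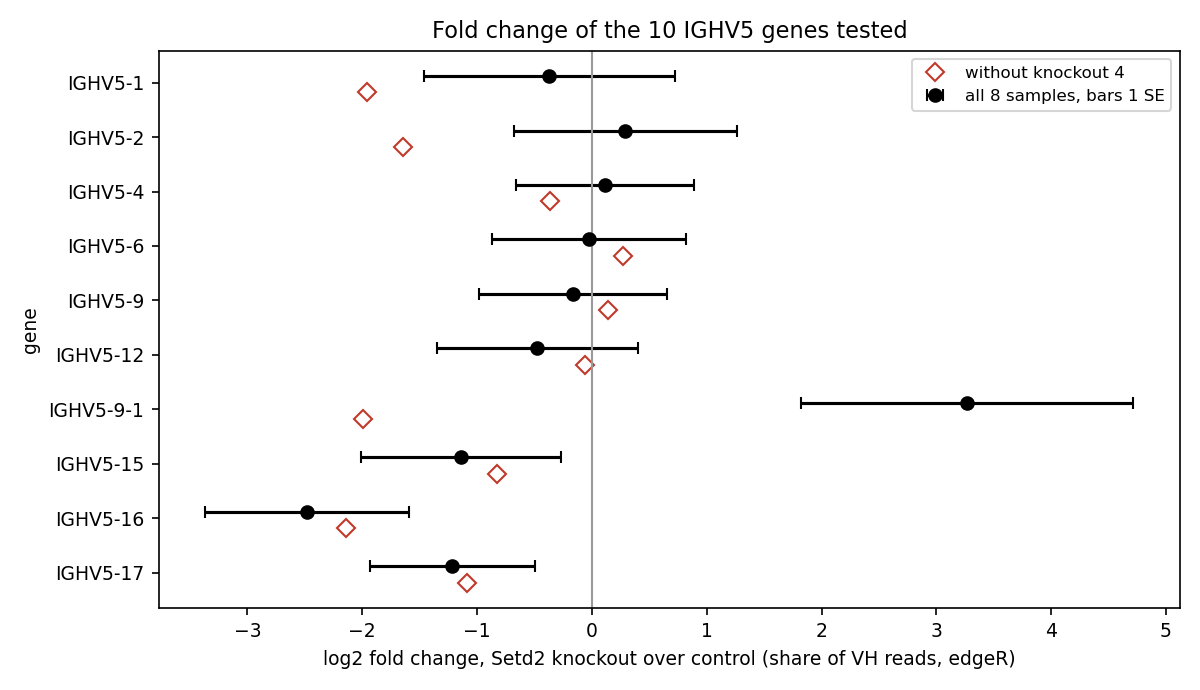
Log2 fold change of each tested member, Setd2 knockout over control, with bars of 1 SE from all 8 samples and open diamonds for the fit without knockout 4. IGHV5-9-1 was at 3.27 with all samples and at -1.99 without knockout 4, while IGHV5-16 and IGHV5-17 stayed negative at -2.15 and -1.09.

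The reads of IGHV5 were set against those of the neighbouring proximal family IGHV2 and the large distal family IGHV1. The ratio of IGHV5 to IGHV2 reads was 0.242, 0.725, 0.838 and 71.0 in knockouts 1 to 4, against 2.34, 1.28, 1.27 and 1.54 in controls 1 to 4. Knockouts 1 to 3 lay below every control and knockout 4 far above. The log2 ratio differed by 0.21 between the group means (two-sided exact permutation p = 1, adjusted p over 5 such tests = 1). Without knockout 4 the difference was -1.56 (exact p = 0.0571, the smallest that 3 against 4 samples allow). Knockout 1 had 27.9% of its VH reads on IGHV2 and knockout 4 had 0.446%, so the ratio moved with IGHV2 as well. The ratio of IGHV5 to IGHV1 reads was 0.141, 0.0502, 0.128 and 0.521 in knockouts 1 to 4, against 0.140, 0.115, 0.112 and 0.109 in controls 1 to 4. Its log2 value differed by 0.32 (exact permutation p = 0.629, adjusted p = 1), and by -0.29 without knockout 4.

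Fewer IGHV5 clonotypes were assembled from the knockouts, and so were fewer clonotypes of all families. They numbered 15, 9, 3 and 20 in knockouts 1 to 4, against 38, 44, 27 and 46 in controls 1 to 4, so the groups did not overlap. The ratio of geometric means was 0.250 (two-sided exact permutation p = 0.0286, the smallest that 4 against 4 samples allow, and adjusted p over 5 tests = 0.143). All complete clonotypes numbered 73 to 248 in knockouts and 665 to 855 in controls, and heavy-chain locus reads 12102 to 100600 in knockouts and 64488 to 89908 in controls. Relative to heavy-chain locus reads the log2 difference of the number of IGHV5 clonotypes was -1.04 in place of -2.0, with the same p of 0.0286 by the exact permutation test. As a share of the clonotypes with a V family, IGHV5 made up 11.03%, 4.69%, 5.88% and 11.05% in knockouts 1 to 4, against 6.27%, 7.57%, 5.28% and 7.55% in controls 1 to 4. Knockouts 1 and 4 were above every control and knockout 2 below. The means were 8.16% ± 3.36 in knockouts and 6.67% ± 1.11 in controls (SD, n = 4 each; exact permutation p = 0.400, adjusted over 15 families p = 0.980). The excess of IGHV5 reads in knockout 4 was not matched in its clonotypes with a V family, where IGHV5 held 7.60% of the contig reads. Those clonotypes had 1223 of the 2558 contig reads of the sample, and contigs outside that set are not counted in this share.

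The leading IGHV5 clonotype of each sample, by contig reads, is printed because it shows which junction the family's reads were assembled into. Capitals mark the first 9 bases of the CDR3.
knockout 1: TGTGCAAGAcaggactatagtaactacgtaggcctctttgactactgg
knockout 2: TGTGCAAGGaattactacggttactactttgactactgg
knockout 3: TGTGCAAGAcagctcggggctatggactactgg
knockout 4: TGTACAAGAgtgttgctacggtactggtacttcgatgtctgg
control 1: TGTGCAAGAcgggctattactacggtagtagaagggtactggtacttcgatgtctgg
control 2: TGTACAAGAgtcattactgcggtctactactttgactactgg
control 3: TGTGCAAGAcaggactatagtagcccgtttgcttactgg
control 4: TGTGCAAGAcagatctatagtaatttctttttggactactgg
They had 48, 6, 3 and 14 contig reads in knockouts 1 to 4, and 12, 10, 10 and 13 in controls 1 to 4. That of knockout 1 held 37.8% of the IGHV5 contig reads of its sample and was joined to IGHJ2. Those of knockout 4 and control 2 began with the bases particular to IGHV5-9-1 among the functional members. Of the 202 IGHV5 clonotypes, 0 occurred in more than 1 sample. Another clonotype of control 3 had as many reads as the one shown, and so did another of control 2, and another of knockout 2.

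The leading IGHV5 junction had near copies of the same length in knockouts 1 and 4 and in all controls, most of all in knockout 1, and none in knockouts 2 and 3. Sequences within 5 bases of the leading one numbered 11 of the 25 others of equal length in knockout 1, 0 of 62 in knockout 2, 0 of 5 in knockout 3 and 6 of 34 in knockout 4. In controls 1 to 4 they numbered 1 of 10, 2 of 156, 2 of 134 and 4 of 122. In knockout 1 the set of 12 held 81 contig reads, and the 4 that listed IGHV5 alone held 52.8% of the sample's IGHV5 contig reads. The 4 of most reads that listed IGHV5 alone are printed, with bases that differ from the leading sequence in capitals.
knockout 1, 48 contig reads: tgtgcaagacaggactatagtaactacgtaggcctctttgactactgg
knockout 1, 12 contig reads: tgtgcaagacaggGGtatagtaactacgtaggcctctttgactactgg
knockout 1, 4 contig reads: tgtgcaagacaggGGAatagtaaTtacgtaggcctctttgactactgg
knockout 1, 3 contig reads: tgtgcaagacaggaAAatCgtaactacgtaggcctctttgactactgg
Over the whole set the differences fell on 15 positions, the last of them position 24 counted from the 5′ end, and the 24 bases after it were the same in all 12. Control 4 held a set of 5 that all listed IGHV5 alone, with 33 contig reads.
control 4, 13 contig reads: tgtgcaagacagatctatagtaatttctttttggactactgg
control 4, 9 contig reads: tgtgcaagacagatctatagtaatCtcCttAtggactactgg
control 4, 7 contig reads: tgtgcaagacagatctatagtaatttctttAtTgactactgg
Over the whole set of 5, the differences lay from position 24 to position 39, and both of these ends are in a sequence of 2 contig reads that is not shown. The source of these near copies was not tested. Counting equal-length sequences within 5 bases once per sample, a choice made after seeing the data, the difference in the IGHV5 share of clonotypes was -0.408 percentage points in place of 1.49 (exact permutation p = 0.83).

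In knockout 4 several IGHV5 contigs shared a run of bases that reaches into the J segment. Its leading clonotype holds the run of 21 bases that is in capitals here, and the search for it was chosen after the values were seen. From TACTGG onward the run is also in the leading clonotype of control 1, which was likewise joined to IGHJ1. That part can come from the J segment, so the run does not by itself mark a shared junction.
knockout 4, 14 contig reads: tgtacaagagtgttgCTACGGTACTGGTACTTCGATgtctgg
knockout 4, 3 contig reads: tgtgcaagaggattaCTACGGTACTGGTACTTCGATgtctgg
knockout 4, 11 contig reads: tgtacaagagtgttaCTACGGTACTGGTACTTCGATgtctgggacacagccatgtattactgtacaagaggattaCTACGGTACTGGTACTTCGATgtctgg
The run was found in 9 contigs of knockout 4 with 66 contig reads, in 1 contig of control 3 with 2 reads, and in 0 contigs of the other 6 samples. Of the 9 contigs, 7 listed IGHV5 alone, out of 36 IGHV5 contigs in that sample. They had 62 reads, which is 44.6% of the IGHV5 contig reads of that sample with incomplete contigs included. The last of the sequences shown is 102 bases long and holds the run at 2 places, with a V end between them. The other 2 IGHV5 clonotypes of 102 bases, also in knockout 4, hold the run at 1 place, after a second V end. The most read sequence within 5 bases of the leading one had 18 contig reads, began TGTACAAGA and named IGHA, the constant region of IgA. It listed no V family, so it was not counted as IGHV5. These contigs are few beside the 15630 reads counted on IGHV5-9-1 in the sample, and which junctions those reads came from was not tested.

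The member behind a clonotype was read from the germline bases before its cysteine codon together with the first 9 bases of the CDR3. At least 30 bases before the codon and at most 3 mismatches were required, a step added after seeing the data. Since those 9 bases entered the match, assignments to IGHV5-9-1 and counts of TGTACAAGA starts are not separate findings. Contigs seldom name a single gene, with a median of 10 to 13 genes listed per IGHV5 clonotype across the samples. IGHV5-6 was assigned 13 clonotypes in knockouts and 28 in controls, and IGHV5-17 was assigned 7 in knockouts and 26 in controls. IGHV5-9-1 was assigned 7 in knockouts, of which 6 were in knockout 4, and 16 in controls. IGHV5-4 was assigned 1 in knockouts and 9 in controls, IGHV5-16 2 in knockouts and 7 in controls, and IGHV5-9 1 in knockouts and 7 in controls. IGHV5-12 was assigned 3 in knockouts and 2 in controls, and IGHV5-2 0 in knockouts and 1 in controls. The remaining 13 of 47 in knockouts and 59 of 155 in controls were tied, too short or too different. Clonotypes that began TGTACAAGA numbered 1, 0, 0 and 5 in knockouts 1 to 4, against 4, 15, 2 and 4 in controls 1 to 4, so control 2, not knockout 4, had the most. IGHV5-9-1 was also the highest in control 2 among the controls by reads, at 1.32% of VH reads.

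IGHV5 CDR3 sequences had similar lengths in both groups. Their mean was 14.9, 12.1, 13.7 and 16.6 amino acids in knockouts 1 to 4, against 14.5, 14.1, 13.9 and 14.2 in controls 1 to 4. Knockout 4 was the longest and was 13.5 without its 3 sequences over 30 amino acids. The group means differed by 0.110 amino acids (exact permutation p = 0.886), and by -0.658 with those sequences left out (exact permutation p = 0.343), an alternative added after seeing the data. Within samples, the IGHV5 mean was above the mean of the other families in 7 of 8 samples, by 0.968 amino acids on average (two-sided exact sign-flip permutation p = 0.0547). With sequences over 30 amino acids left out, the difference was 0.588 (exact p = 0.102), again in 7 of 8 samples. A JH segment was named for 26 IGHV5 clonotypes in knockouts and 93 in controls. IGHJ1, IGHJ2, IGHJ3 and IGHJ4 took 7, 7, 5 and 7 of them in knockouts and 13, 35, 20 and 25 in controls. Of the 7 IGHJ1 clonotypes of the knockouts, 6 came from knockout 4. Most of these share the run of 21 bases described above, among them the 3 sequences over 30 amino acids. Whether they come from separate joins was not tested.

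The constant region joined to IGHV5 could be read for few clonotypes. It was named for 5 IGHV5 clonotypes in knockouts and 28 in controls, and all 33 were IGHA, the constant region of IgA. Among other clonotypes with a constant region, 652 of 684 were IGHA, 31 were IGHG and 1 was IGHM. This naming did not follow the reads, since IGHM took the largest share of constant-region reads in every sample, as given below. The named constant regions therefore do not give the class of the IGHV5 clonotypes as a whole. IGHA and IGHG are the marks of switched B cells and plasma cells, and the sort removed cells positive for IgM without a stain for IgA or IgG. Of the reads on constant-region genes, IGHG took 2.66% to 14.9% in knockouts and 20.8% to 35.5% in controls, with all 4 IGHG genes read in every sample. IGHA took 4.02% to 34.1% in knockouts and 17.1% to 33.3% in controls, IGHD 0.467% to 0.759% in knockouts and 0.651% to 0.977% in controls, and IGHM 55.4% to 92.7% in knockouts and 41.4% to 48.0% in controls. Knockout 4, with the excess of IGHV5-9-1, had the highest IGHA share of the 8 samples at 34.1%. Control 2, with 1.32% of VH reads on IGHV5-9-1, was close at 33.3%. So was control 4 at 32.0%, with 0.438% of VH reads on IGHV5-9-1, the lowest of the controls. In knockout 4, IGHG took 10.1% and IGHE, with 1 read, 0.00232%. Both shares were below every control in the other knockouts as well. Its light-chain constant reads, 62691 on IGKC and 3511 on IGLC, were the most of the 8 samples, as were its 100600 heavy-chain locus reads. The part of switched cells in the IGHV5 values was not tested, and fewer cells of a type and less RNA per cell cannot be told apart in these bulk samples.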

How the data were processed

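RNA-seq reads of 75 bases, single-end, came from 4 Setd2 knockout and 4 control samples of a single sequencing batch, per the labels. The submitters' processing notes name STAR 2.5.1 for alignment and mm10 as build, and heavy chains were assembled with TRUST, per the series design text. The segment and contig read counts are whole numbers with no normalization, as deposited by the authors. The clonal expression score deposited beside each contig was not used in the values reported. Total VH reads were the library size of the main test, and heavy-chain locus reads were an alternative. Whole-library depth is unknown.

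Counts of all 130 VH genes with at least 10 reads entered edgeR 4.0.16 (R 4.3.3, quasi-likelihood test), with total VH reads as library size and Benjamini-Hochberg adjustment. The test was checked on simulated data with known changes, drawn with the same spread for all genes. No outlying sample such as knockout 4 was built in, so the check does not cover that case. DESeq2 1.42.0 was an alternative. Values over clonotypes had an exact two-sided permutation test over 70 arrangements of the samples, with adjustment over 5 results, in Python 3.11.15 with scipy 1.17.1. Intervals are 95% Wilson intervals, and 0 counts allow up to 3 counts. IGHV5 clonotypes were complete CDR3 nucleotide sequences whose listed V genes were all IGHV5. Germline sequences were taken from GENCODE M21. The functional members and IGHV5-1 were named with values, other genes as families only, and clonotypes by most reads. Alternatives were other scalings, read filters, clonotype definitions, each sample left out and a replicate block. The members, lists and tests were chosen with earlier results of these data known. Antisense reads and reads of near-identical members cannot be told apart.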

Additional observations from a re-analysis of the deposited data

Results flagged for a closer look

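Among 32 groups of 4 samples examined, 7 had an extreme sample standing far from the rest of its group, where chance gives about 1 in 20 groups. In the knockouts, knockout 4 stood apart with 31.6% of VH reads on IGHV5, 27.6% on IGHV5-9-1, 0.168% on IGHV5-2 and a ratio of IGHV5 to IGHV2 reads of 71.0. The family share, the ratio and the IGHV5-9-1 share all use the reads of IGHV5-9-1 and are not separate findings. Knockout 3, the sample with fewest VH reads, stood apart with 1.53% on IGHV5-17. In the controls, control 4 stood apart with 0.365% on IGHV5-15 and 1.73% on IGHV5-17.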

How the results depend on the processing

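Among the VH genes, 0 were called by edgeR with total VH reads as library size (36 at an unadjusted p under 0.05) and 0 with TMM. Calls numbered 6 with DESeq2, 26 with heavy-chain locus reads as library size, 6 with at least 1 read, 2 with at least 100 reads, and 0 to 5 with each sample left out, among them 4 without knockout 2 and 5 without control 4. IGHV5 family reads gave log2 fold changes from -0.34 without knockout 4 to 1.02 without knockout 2.

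Replicate numbers were shared across groups, but same-numbered samples correlated by only -0.046 to 0.0967, and 3 of 4 knockouts correlated best with their own number. With the replicate block, 15 VH genes were called, IGHV5-16 among them (log2 -2.66, adjusted p = 0.0487). The block gave -0.997 for IGHV5-9-1, -0.51 for IGHV5-2 and -0.38 for IGHV5-4, and log2 -2.0 with exact p = 0.125 for the number of IGHV5 clonotypes, the smallest p the block allows.

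Single-member directions turned with the scaling. TMM gave 1.35 for IGHV5-1, 0.37 for IGHV5-12, 0.88 for IGHV5-6 and 0.65 for IGHV5-9, and DESeq2 gave 1.27, 0.34, 1.01 and 0.64 for the same genes. Locus reads as library size gave -0.41 for IGHV5-4. Each sample left out gave -1.96 to 0.63 for IGHV5-1, -1.64 to 1.10 for IGHV5-2, -0.37 to 0.44 for IGHV5-4, -1.03 to 0.43 for IGHV5-6, -0.54 to 0.55 for IGHV5-9 and -1.99 to 3.71 for IGHV5-9-1. IGHV5-15, IGHV5-16 and IGHV5-17 stayed negative under every alternative run.

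Each sample left out gave -2.36 to -1.45 (log2) for the number of IGHV5 clonotypes, where the smallest possible p is 0.0571. The IGHV5 share of clonotypes differed by -2.72 percentage points with contigs naming a single V gene and by -0.408 with near-identical sequences counted once. Mean CDR3 length differed by -0.125 as a median, by -0.658 without sequences over 30 amino acids, and by -0.653 to 0.843 with each sample left out. The log2 ratio of IGHV5 to IGHV2 was -0.62 by clonotypes and -1.56 to 1.17 with each sample left out, and that to IGHV1 -0.29 to 0.83. Apart from what an alternative's own construction shows, the cause was not tested. Clonotype number and length with a single named V gene had no value, since 1 sample had none, and DESeq2 gave no adjusted p for the family. Knockout 3, with 1637 VH reads, limits what could be detected at low members.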
